A study of Bos taurus with 12 samples.

Results

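Of the 783 bovine miRNAs in the deposited table, 5 were examined: bta-miR-122, bta-miR-192, bta-miR-194, bta-miR-375 and bta-miR-7. They were taken by name, as miRNAs known mainly from liver, gut epithelium and endocrine cells, and no threshold on their values was used. The choice was made with earlier results of these data known. The libraries were made from extracellular vesicle (EV) RNA of blood plasma from 6 Charolais- and Limousin-cross heifers. The groups were unstimulated low (UL) and high (UH) responders, sampled on Day 7 of an unstimulated cycle (U), and the same responders on Day 7 of a superstimulated cycle (SL, SH), with 3 libraries in each of the 4 groups. Superstimulation was by follicle-stimulating hormone (FSH) for 4 days from Day 10 of the cycle, together with prostaglandin F2α and insemination, so an S library differs from a U library in all of these as well as in the cycle itself. All heifers had first been synchronized with a progesterone device, a gonadotrophin-releasing hormone injection and prostaglandin F2α. Low (L) and high (H) responders were taken from the lower and upper quartiles of ovulatory response in the S cycle, so the U libraries of both groups predate the response they are named for. The vesicle preparation was of whole plasma and was not sorted for the tissue that released the vesicles.

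A miRNA guides a silencing complex to messenger RNAs, mainly by pairing of its seed, the bases 2 to 8 from its 5′ end. Many tissues release miRNAs into blood inside vesicles or bound to proteins, and a miRNA made largely by a single tissue is often read as a tracer of that tissue. miR-122 is the most abundant miRNA of hepatocytes and acts in cholesterol and fatty acid metabolism. miR-192 and miR-194 are made from shared transcripts in liver, intestinal epithelium and kidney, miR-375 is enriched in pancreatic islets, pituitary and neuroendocrine cells of the gut and restrains insulin secretion, and miR-7 is made in endocrine pancreas, pituitary and neurons. In plasma, fewer vesicles from a tissue and less of the miRNA per vesicle cannot be told apart.

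The mature sequences are shown, as deposited and written as DNA, because they decide which reads can be assigned to each miRNA. The seed is in capitals.
bta-miR-122: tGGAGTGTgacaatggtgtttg
bta-miR-192: cTGACCTAtgaattgacagccag
bta-miR-215: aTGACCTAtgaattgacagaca
bta-miR-194: tGTAACAGcaactccatgtgga
bta-miR-375: tTTTGTTCgttcggctcgcgtga
bta-miR-7: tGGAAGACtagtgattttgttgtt
The 5 miRNAs had 5 different seeds. In the whole table a single further miRNA carried one of them: bta-miR-215, another miRNA of gut epithelium, shared the seed of bta-miR-192 and was equal to it at 20 positions when aligned. Since reads had to match perfectly, these miRNAs were told apart by their other bases. In the gene order of RefSeq (a newer assembly than the one used for mapping), MIR192 lies next to MIR194-2, and MIR215 lies next to MIR194-1. Reads of bta-miR-194 can therefore come from either gene pair. For bta-miR-7, RefSeq places MIR7-2 next to HNRNPK and MIR7-3 next to FEM1A.

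Depth limits what can be read from these miRNAs. The libraries held 21466 to 77433 reads of known miRNAs, with a median of 41190, and the group medians were 41202 (UL), 52304 (UH), 32160 (SL) and 38688 (SH). Values are given as normalized reads, which are reads scaled to a common depth by TMM (trimmed mean of M-values). In SH2, the shallowest library, 3 reads corresponded to 6.08 normalized reads, and in SH3, the deepest, to 1.82. Together the 5 miRNAs made up 71 reads in SL3 to 1067 reads in UH2, or 0.24 to 1.44% of known miRNA reads. Over the 12 libraries, bta-miR-122 had 2563 reads, bta-miR-192 had 913, bta-miR-375 had 282, bta-miR-194 had 115 and bta-miR-7 had 71. bta-miR-122 alone gave 30.4% (SH2) to 84.4% (UH2) of the reads of the 5.

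bta-miR-122, the hepatocyte miRNA, was the most abundant of the 5 by mean and uneven between libraries. It had 75.3, 152.2 and 268.2 normalized reads in UL1, UL2 and UL3, and 91.9, 646.9 and 122.9 in UH1, UH2 and UH3. In the superstimulated cycle the values were 95.4, 194.8 and 53.0 in SL1 to SL3 and 63.7, 48.7 and 330.1 in SH1 to SH3. A single library stood far above the others in both H groups, UH2 in the unstimulated and SH3 in the superstimulated cycle, and these came from different heifers. The range was 13.3-fold, and bta-miR-122 ranked between place 13 and place 58 in the libraries. Its coefficient of variation (CV) over all libraries was 96%, against a median of 40% for the 107 miRNAs that averaged 10 reads or more, of which 12, itself included, had a CV at least that high. UL and UH had means of 165.2 ± 97.1 and 287.2 ± 311.9, and SL and SH had means of 114.4 ± 72.8 and 147.5 ± 158.3 (SD, n = 3), with overlap between the ranges of all groups.

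bta-miR-192, shared by liver and gut, was detected with at least 24 reads in every library and varied less. Its values were 57.7, 46.5 and 105.7 normalized reads in UL and 56.3, 75.4 and 117.6 in UH (libraries 1, 2 and 3). They were 62.0, 27.8 and 37.4 in SL and 50.1, 52.7 and 140.4 in SH. The means were 69.9 ± 31.5, 83.1 ± 31.4, 42.4 ± 17.6 and 81.1 ± 51.4 in UL, UH, SL and SH (SD, n = 3), with the lowest mean in SL and overlapping ranges throughout. The CV was 50%.

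bta-miR-194, the partner of bta-miR-192 and bta-miR-215, was much scarcer, with 1 to 34 reads per library. UL had 5.6, 10.0 and 9.0 normalized reads and UH had 17.8, 7.9 and 9.9. SL had 3.7, 4.0 and 4.7, from 3 or 4 reads each, and SH had 10.8, 2.0 and 20.7, where the value of 2.0 was a single read in SH2. The 3 SL libraries were below all 3 UL libraries. In the other pairs of groups that were compared, the libraries overlapped. Although bta-miR-192 and bta-miR-194 are made from neighboring genes, the ratio of their reads ran from 3.17 in UH1 to 26.0 in SH2, the latter on the single bta-miR-194 read.

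bta-miR-375, the islet and neuroendocrine miRNA, had 24.2, 38.3 and 44.9 normalized reads in UL and 25.2, 34.5 and 17.5 in UH. In the superstimulated cycle it had 18.6, 24.9 and 15.6 in SL and 4.1, 22.3 and 10.3 in SH. The U means were 35.8 ± 10.6 (UL) and 25.7 ± 8.5 (UH) and the S means 19.7 ± 4.7 (SL) and 12.2 ± 9.3 (SH; SD, n = 3), so both S groups had lower means than both U groups. SL1, SL2 and SH2 still lay within the range of the U libraries, and SL3, SH1 and SH3 lay below it. The lowest value, in SH1, was from 3 reads.

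bta-miR-7, also an endocrine and neuronal miRNA, was the scarcest, with 2 to 17 reads in 11 libraries and 0 in SL3. That count of 0 allows a share of up to 0.0102% of known reads, or 4.68 normalized reads, which is above several of the detected values. UL had 4.7, 10.9 and 3.0 normalized reads, UH had 4.4, 1.4 and 7.6, and SL had 2.5, 9.9 and 0.0. SH had 2.7, 34.5 and 3.0, and 17 reads in the shallow library SH2 made the highest value. The values thus rested on few reads and also spread widely between libraries of the same group.

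**Figure D1:**
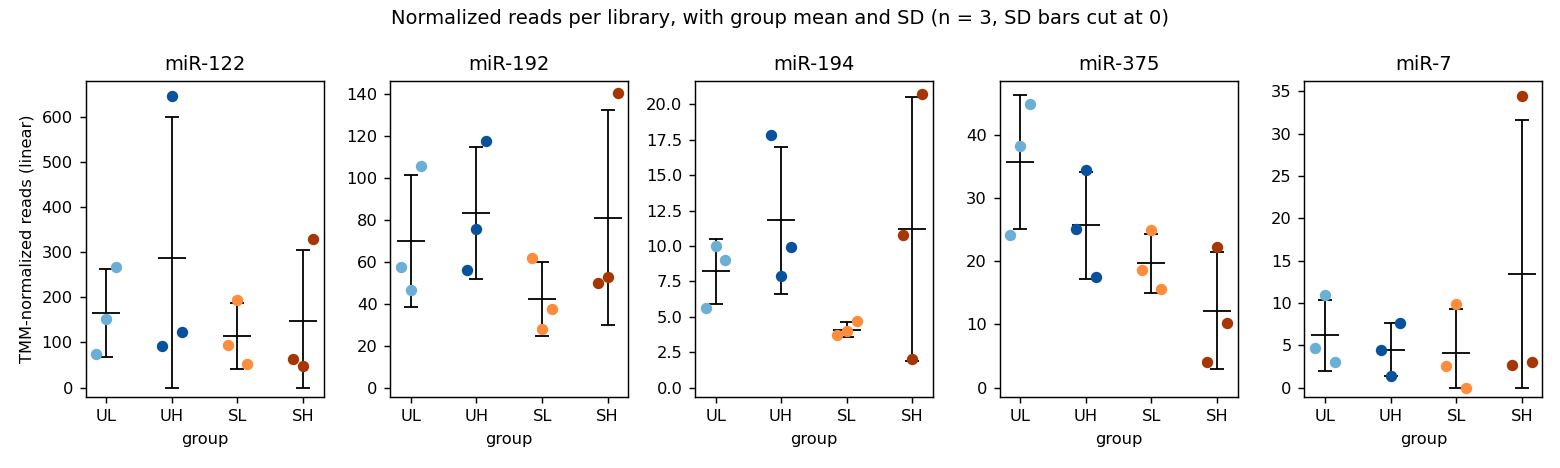
TMM-normalized reads (linear axes, a different scale for each miRNA) in the 12 libraries by group. Each point is a library (1 to 3 from left to right), horizontal marks are group means and bars are SD (n = 3, cut at 0). bta-miR-375 had means of 35.8 and 25.7 in UL and UH and of 19.7 and 12.2 in SL and SH, while single libraries set the H means of bta-miR-122 (646.9 in UH2, 330.1 in SH3).

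The first comparison asked whether these tissue miRNAs differed between the U and S cycles. Over all heifers, bta-miR-375 was the single member of the 5 that passed both thresholds of a call, a log2 fold change of 1 or more in either direction and a P, before adjustment, no higher than 0.05. Its level was 2.03-fold lower in S than in U (log2 fold change -1.02, SE 0.39). The unadjusted limma P was 0.0165, and it did not pass correction over the 238 miRNAs tested (adjusted P = 0.54). All 11 miRNAs called made up 4.62% of those tested (6 higher, 5 lower), and 0 passed an adjusted P of 0.05 although the P before adjustment was no higher than 0.05 for 17. The call rests on a value just past the fold threshold. It was lost when UL2, UL3, UH2, SL3 or SH1 was left out, with a log2 fold change still negative and closest to 0 without SH1 (-0.74), and it was also lost with median-of-ratios size factors (-0.98) or a pseudocount of 2 reads (-0.96). The adjusted P of bta-miR-375 ranged from 0.352 to 0.673 over 9 other settings and from 0.0552 to 0.78 over the fits that left out a library.

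None of the other members was called in S vs. U. bta-miR-122 had a log2 fold change of -0.74 (SE 0.51, limma adjusted P = 0.716), bta-miR-192 of -0.42 (SE 0.33, adjusted P = 0.721) and bta-miR-194 of -0.61 (SE 0.52, adjusted P = 0.721). For bta-miR-7 the log2 fold change was -0.10 (SE 0.72, adjusted P = 0.968). The median of all 238 miRNAs was -0.13, and bta-miR-375, bta-miR-122, bta-miR-194, bta-miR-192 and bta-miR-7 lay at percentiles 3.4, 9.7, 16.8, 26.1 and 52.9 of them.

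**Figure D2:**
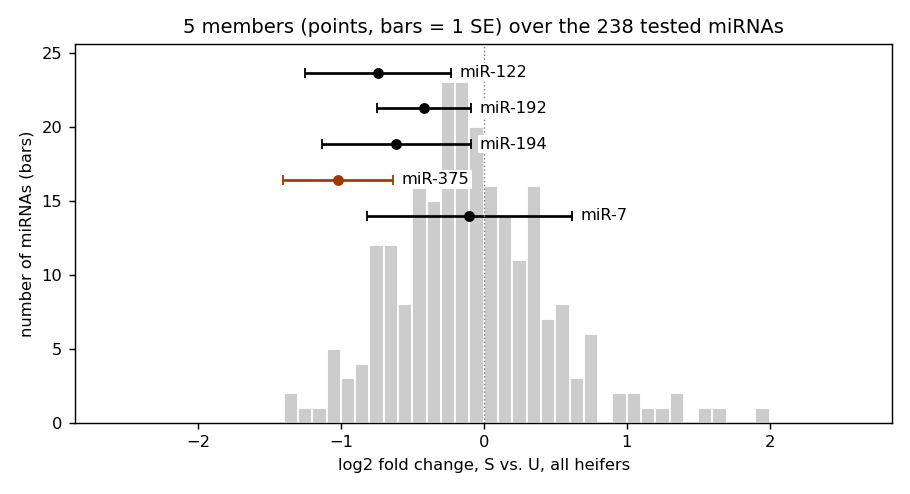
Log2 fold changes between the S and U cycles over all heifers. Gray bars count the 238 tested miRNAs in bins of the log2 fold change (x axis), and points with bars give each member ± 1 SE at an arbitrary height. bta-miR-375 (brown, -1.02) was called, while the intervals of 1 SE of bta-miR-122, bta-miR-192 and bta-miR-194 lay below 0 without a call.

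Because each heifer gave a library in both cycles, the change was also taken within heifers, as the difference of log2(normalized reads + 1) between S and U. Libraries with the same response letter and number were read as the same heifer, which the labels do not state. bta-miR-375 was lower in S in 6 of 6 heifers, with differences of -2.37, -0.61 and -0.70 in H1, H2 and H3 and of -0.36, -0.60 and -1.47 in L1, L2 and L3. The mean difference was -1.02 ± 0.76 (SD, n = 6, exact two-sided sign-flip permutation test p = 0.0312, the smallest that 6 pairs can give, adjusted p = 0.837). Of the 238 miRNAs, 5, or 2.1%, had a sign-flip p of at most 0.05, and no adjusted p was under 0.837. With 6 pairs, an adjusted p of at most 0.05 would need most of the 238 miRNAs to reach the smallest p. The adjusted sign-flip values therefore cannot decide on a single miRNA. With the heifer as a replicate block in limma, the log2 fold change of bta-miR-375 was again -1.02 (limma adjusted P = 0.352), and it was again called.

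The other members did not move one way in every heifer. bta-miR-194 was lower in S in 5 of 6 heifers, with H3 the exception at 1.0 (mean -0.61 ± 0.87, exact permutation p = 0.156, adjusted p = 0.837). bta-miR-7 was also lower in 5 of 6 heifers, but the difference of 3.86 in H2 brought its mean to -0.10 ± 2.04 (exact permutation p = 0.938, adjusted p = 1). So 3 of the 5 miRNAs were lower in at least 5 heifers, against 11.3% of all miRNAs tested, with the differences of bta-miR-7 and bta-miR-194 resting on few reads. The difference of bta-miR-7 in L2 was only -0.13, and its mean turned to 0.004 with a pseudocount of 2 reads. The 5 were chosen with earlier results of these data known, so this count is a description and not a test. bta-miR-192 was lower in 4 heifers, with differences from -1.47 in L3 to 0.25 in H3 (mean -0.42 ± 0.63, exact permutation p = 0.188, adjusted p = 0.837). bta-miR-122 was lower in 3 heifers and higher in 3, from -3.71 in H2 to 1.42 in H3 (mean -0.74 ± 1.92, exact permutation p = 0.406, adjusted p = 0.844).

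**Figure D3:**
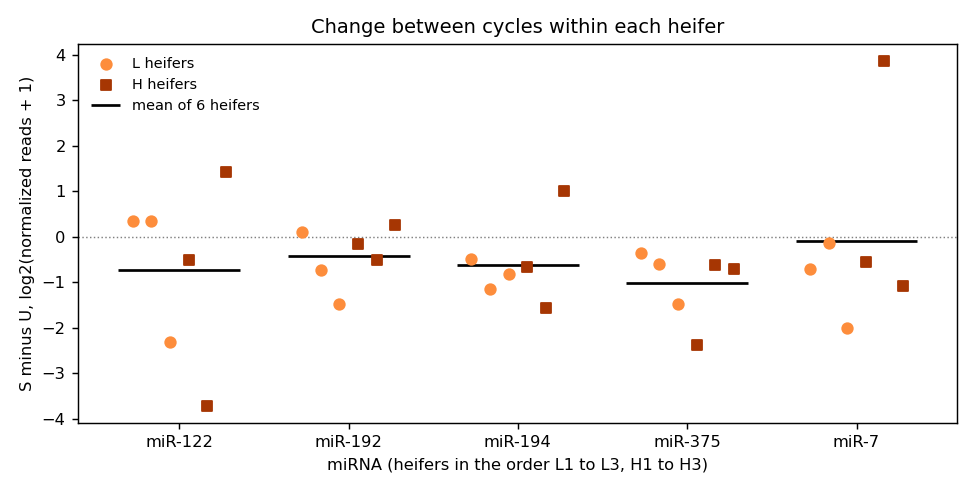
Within-heifer differences (y axis, S minus U of log2 normalized reads with 1 added) for each miRNA. Circles are the 3 L heifers, squares the 3 H heifers and lines the means of 6. All 6 points of bta-miR-375 lay below 0, and bta-miR-122 spread from -3.71 to 1.42.

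Within the response groups, neither SH vs. UH nor SL vs. UL gave a call among the 5 miRNAs. In SH vs. UH, where 5.66% of 212 miRNAs were called, the log2 fold changes were -0.94 for bta-miR-122 (SE 0.69), -0.14 for bta-miR-192 (SE 0.51), -0.41 for bta-miR-194 (SE 0.84), -1.23 for bta-miR-375 (SE 0.71) and 0.74 for bta-miR-7 (SE 0.98), with limma adjusted P from 0.735 to 0.936. bta-miR-375 was past the fold threshold but not the P threshold, and its SH libraries (4.1 to 22.3) overlapped those of UH (17.5 to 34.5). Groups did not overlap for 7.55% of the miRNAs tested and for 0 of the 5. These values depended on single libraries. bta-miR-375 was called without SH2 (log2 fold change -1.77), where 24 of 209 miRNAs were called, and was at -0.67 without SH1. bta-miR-122 was called without SH3 (-1.79), where 16 of 207 miRNAs were called, but was at -0.42 without SH2 and -0.07 without UH2.

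In SL vs. UL, with 2.34% of 214 miRNAs called (5, and 3 with the heifer as a replicate block), the log2 fold changes were negative for all 5: -0.54 for bta-miR-122 (SE 0.51), -0.70 for bta-miR-192 (SE 0.39), -0.81 for bta-miR-194 (SE 0.60), -0.81 for bta-miR-375 (SE 0.38) and -0.94 for bta-miR-7 (SE 0.92). The limma adjusted P was 0.701 to 0.764. bta-miR-194 was the single one of the 5 whose SL and UL libraries did not overlap, against 7.94% of the miRNAs tested. Its SL libraries held 3 or 4 reads each and its UL libraries 6 to 11, and it was not called. Leaving out a library moved these values both ways. bta-miR-375 was called without UL1 (-1.06, with 8 of 199 miRNAs called) and was at -0.63 without UL3. bta-miR-192 was called without SL1 (-1.003, with 8 of 207 called) and was at -0.36 without UL3. bta-miR-122 was called without SL2 (-1.02, with 15 of 207 called) and was at -0.10 without UL3 and -0.09 without SL3.

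The change between cycles was not shown to depend on response. In the interaction of cycle and response, 5.04% of 238 miRNAs and 0 of the 5 were called. The difference of the log2 fold changes, H minus L, was -0.40 for bta-miR-122 (SE 1.02), 0.56 for bta-miR-192 (SE 0.65), 0.41 for bta-miR-194 (SE 1.05), -0.42 for bta-miR-375 (SE 0.77) and 1.68 for bta-miR-7 (SE 1.43). These errors leave room for differences in either direction.

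High and low responders were compared within each cycle to ask whether the miRNAs mark the response. In UH vs. UL, before superstimulation, 2.64% of 227 miRNAs were called and 0 of the 5. The log2 fold changes were 0.42 for bta-miR-122 (SE 0.56), 0.27 for bta-miR-192 (SE 0.37), 0.44 for bta-miR-194 (SE 0.61), -0.47 for bta-miR-375 (SE 0.42) and -0.41 for bta-miR-7 (SE 0.78), and the limma adjusted P was 0.93 to 0.958. Each of the 5 overlapped between UH and UL, while 7.49% of the miRNAs tested did not.

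In SH vs. SL, 5.47% of 201 miRNAs were called and again 0 of the 5, and 8.96% did not overlap, again with 0 of the 5. bta-miR-192 had a log2 fold change of 0.83 (SE 0.51, limma adjusted P = 0.667), bta-miR-194 of 0.85 (SE 0.84, adjusted P = 0.739) and bta-miR-7 of 1.27 (SE 1.13, adjusted P = 0.697). bta-miR-122 was at 0.02 (SE 0.70, adjusted P = 0.987), and with library sizes in place of TMM it was at -0.13. For bta-miR-375 it was -0.88 (SE 0.67, adjusted P = 0.697). Without SH2, whose single read gave the low SH value, bta-miR-194 was called higher in SH (log2 fold change 1.65), but in that fit 34 of 196 miRNAs were called. Without SH3 its log2 fold change was 0.23. The pairs of comparisons share libraries, so their values are not independent of each other.

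**Figure D4:**
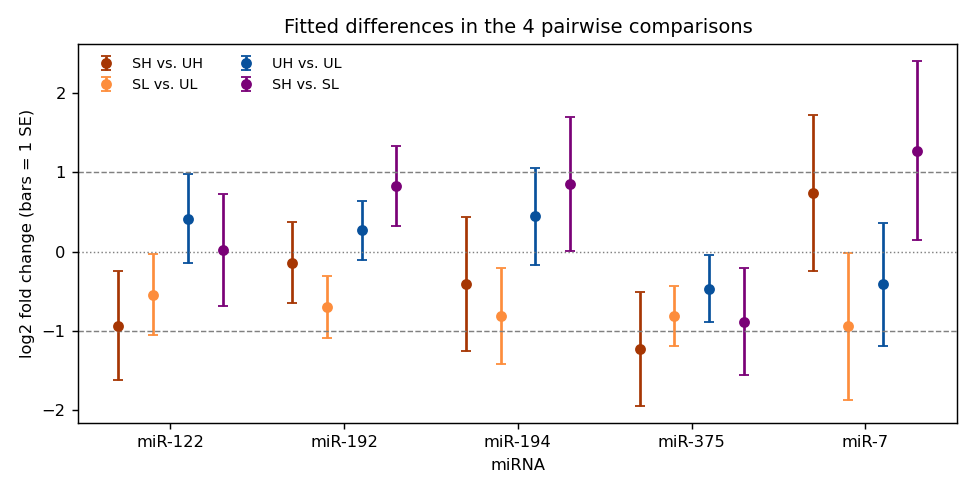
Log2 fold changes (y axis, points) with 1 SE (bars) of the 5 miRNAs in the comparisons SH vs. UH, SL vs. UL, UH vs. UL and SH vs. SL. Dashed lines mark the fold threshold of 1 on the log2 scale. bta-miR-375 was below 0 in each of the 4 comparisons, and 0 of the points were called.

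Other miRNAs of the same tissues gave context. Of the liver list, bta-miR-148a, an abundant hepatocyte miRNA also made elsewhere, had 2816 reads and means of 165.6, 220.9, 206.2 and 400.2 normalized reads in UL, UH, SL and SH, with an S vs. U log2 fold change of 0.39 (not called). The liver-enriched bta-miR-885 and bta-miR-483 had 4 and 14 reads in all. bta-miR-802, also on the liver list, was not among the 783 bovine miRNAs, so no level can be given. Of the 6 gut epithelium miRNAs, all had reads, 5 were tested and 0 were called. bta-miR-215, with the seed of bta-miR-192, had 188 reads and means of 11.4 (UL), 18.0 (UH), 10.3 (SL) and 15.4 (SH), and its S vs. U log2 fold change was -0.02. The epithelial family members bta-miR-200a, bta-miR-200b, bta-miR-200c, bta-miR-141 and bta-miR-429 had 28, 17, 59, 9 and 3 reads.

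Few or no reads were found for the pancreas list and for the neural list, which was drawn up for neural and neuroendocrine miRNAs. The exocrine pancreas miRNAs bta-miR-216a, bta-miR-216b and bta-miR-217 had 0 reads in the 12 libraries. Of 7 neural miRNAs, bta-miR-9-5p had 5 reads, bta-miR-124a had 2 and bta-miR-129-3p had 4, and the other 4 had 0.

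Markers of other cells were also compared between the cycles, and their relation to the 5 miRNAs was not tested. The summed endothelial miRNAs bta-miR-126-3p and bta-miR-126-5p were, like bta-miR-375, lower in S in 6 of 6 heifers (mean difference of log2 sums -0.71 ± 0.64, SD). Of the 238 single miRNAs tested, 11.3% were lower in S in at least 5 heifers, and no such share was taken for sums. The sums were 4096.2 to 7064.5 (UL), 4698.1 to 11987.6 (UH), 3555.1 to 6471.3 (SL) and 1701.5 to 7735.0 (SH) normalized reads. Most of the sum was bta-miR-126-3p, with 58917 reads, against 8091 for bta-miR-126-5p. Both miRNAs of the list were detected in every library, and 0 of 2 were called in S vs. U, with log2 fold changes of -0.72 for bta-miR-126-3p (limma adjusted P = 0.657) and -0.66 for bta-miR-126-5p (adjusted P = 0.629). In SH vs. UH, bta-miR-126-5p was called (log2 fold change -1.16, SE 0.50, limma adjusted P = 0.735) and bta-miR-126-3p was at -1.22 (SE 0.62, adjusted P = 0.735), beside -1.23 for bta-miR-375. In SL vs. UL they were at -0.15 and -0.21 (adjusted P = 0.886 and 0.862), beside -0.81 for bta-miR-375. Their part in the lower bta-miR-375 was not tested. The sum of the red cell miRNAs bta-miR-486, bta-miR-451 and bta-miR-144 was lower in S in 2 of 6 heifers (0.52 ± 0.74). That sum was nearly all bta-miR-486, with 32165 reads, against 338 for bta-miR-451 and 24 for bta-miR-144. In S vs. U, bta-miR-486 had a log2 fold change of 0.53, but bta-miR-451 had -0.09 and bta-miR-144 had -0.73, without a call. The sum of 6 leukocyte and platelet miRNAs was also lower in 2 heifers (0.26 ± 0.57). The summed muscle miRNAs were lower in S in 3 heifers (-0.29 ± 1.74). Their sums reached 1732.8 normalized reads in UL, against at most 146.7 (UH), 167.3 (SL) and 166.3 (SH). A single library held 1246 of the 1773 reads of bta-miR-1. The S vs. U log2 fold changes, without a call, were -0.65 for bta-miR-1, 0.11 for bta-miR-133a, -0.68 for bta-miR-133b, 0.02 for bta-miR-206 and -0.215 for bta-miR-499. bta-miR-206 was called in UH vs. UL and SH vs. SL. bta-miR-208b had 5 reads and bta-miR-208a had 0. The read ratio of bta-miR-451 to bta-miR-23a, which the study used to check for hemolysis, was 0.09 in UH2 to 0.64 in SH1.

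The 5 miRNAs did not vary as a block over the 12 libraries. The Pearson correlation of log2 normalized reads was 0.53 between bta-miR-192 and bta-miR-194, 0.46 between bta-miR-122 and bta-miR-192 and 0.41 between bta-miR-122 and bta-miR-194. bta-miR-375 had 0.38 with bta-miR-122 and -0.02 with bta-miR-192. These are descriptions over 12 libraries from 6 heifers. The read ratio of bta-miR-122 to bta-miR-192 ran from 0.92 in SH2 to 8.58 in UH2.

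Among the same 107 miRNAs, those with patterns most like bta-miR-375 were bta-miR-23b-3p (r = 0.90), bta-miR-1468 (0.89) and bta-miR-30a-5p (0.88). For bta-miR-122 they were bta-miR-145 (0.77), bta-miR-320a (0.67) and bta-miR-660 (0.66), and for bta-miR-192 they were bta-miR-3431 (0.72), its seed relative bta-miR-215 (0.70) and bta-miR-16a (0.67). bta-miR-194 and bta-miR-7 were too scarce for this ranking.

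Normalized bta-miR-122 was also related to the known miRNA reads of the library, with r = 0.83 against their log2. UH2 and SH3, the libraries with the most bta-miR-122, had the most known miRNA reads of their groups. Known miRNAs made up 37.23% of the implied mapped reads in UH2 and 35.94% in SH3, against 17.03 (SH2) to 26.99% (SH1) in the other libraries. By implied mapped reads, UH2 (198898) was below UH3 (205625). The correlation with log2 of the known miRNA reads was 0.51 for bta-miR-192, 0.58 for bta-miR-194, 0.04 for bta-miR-375 and -0.23 for bta-miR-7. The part of depth, or of the known miRNA share, in the spread of bta-miR-122 was not tested.

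**Figure D5:**
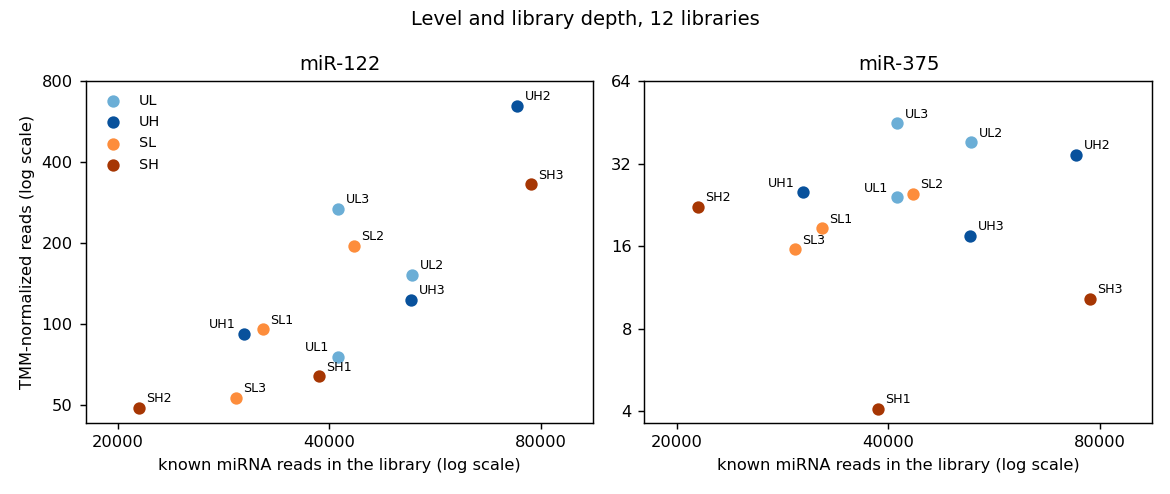
TMM-normalized reads (y axis, log scale) of bta-miR-122 and bta-miR-375 against the known miRNA reads of each library (x axis, log scale). Points are the 12 libraries, colored by group and named. bta-miR-122 was higher in libraries with more known miRNA reads (r = 0.83), and bta-miR-375 showed no such relation (r = 0.04), with SH1 lowest at 4.1.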

How the data were processed

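Small RNA of plasma EVs was sequenced in 12 libraries. The authors extracted UMIs and trimmed with Cutadapt, mapped to UMD3.1 with Bowtie2 2.2.2 and named reads that matched miRBase perfectly. The deposited score per miRNA and library is the number of tags in 1000000 mapped reads, reduced to its whole part and not TMM-scaled. The number of columns not used was 0. Each value was the whole part of reads times a fixed step of 4.4784 to 7.9343 per library, which gave back whole reads with 0 values left over. The authors tested with edgeR. As the deposited score is not a count, limma 3.58.1 (R 4.3.3) was used here instead, on log2(TMM-normalized reads + 1), with a mean-variance trend, two-sided. A fitted fold change on this scale understates changes of scarce miRNAs.

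A miRNA was tested where 2 or more of the 3 libraries of any group had 1 read or more. A call needed a log2 fold change of 1 or more in either direction and a P, before adjustment, no higher than 0.05 (the thresholds of the study), and P was adjusted by Benjamini-Hochberg over all miRNAs tested. Pairwise fits held the 2 groups compared, and S vs. U and the interaction held all 4. Scripts were tested on simulated data. The members and lists were chosen with earlier results of these data known. Named besides the members were the miRNAs with a shared seed and those of the liver, gut, pancreas, red cell, endothelial and muscle lists. Of the neural list, those with a read were named. The leukocyte and platelet list was given only as a sum. The 3 most alike of each member with at least 10 reads on average were also named.

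Pairing rests on the same heifers having been sampled in both cycles, with equal numbers read as equal heifers. Deviations of U and S libraries from group means correlated at 0.05, 0.21 and 0.13 for H1 to H3 and 0.10, 0.06 and -0.05 for L1 to L3 over 238 miRNAs. Each library of a group was of another heifer. Detection limits are 3 reads and cover counting error only. Tables and figures were made in Python 3.11.15 (pandas 2.3.3, numpy 2.4.6, matplotlib 3.10.9, scipy 1.17.1). Gene neighbors were taken from RefSeq.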

Additional observations from a re-analysis of the deposited data

How the results depend on the processing

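The calls among the 5 miRNAs followed small changes of the processing. In S vs. U, the count was 0 instead of 1 with median-of-ratios size factors and with a pseudocount of 2 reads. It was 0 to 2 when a library was left out, the 2 being bta-miR-122 and bta-miR-375 without SH3, where 16 of 235 miRNAs were called. In SH vs. UH it was 1 instead of 0 (bta-miR-375) with all 4 groups in 1 fit, where 19 of 238 miRNAs were called. Leaving out a library gave 0 to 1 in SH vs. UH, SL vs. UL and SH vs. SL. With the replicate block, paired by heifer between cycles, the count was 1 in S vs. U and 0 in each of the other comparisons, as without it. For H against L the block was the shared number alone. With 2 reads as the pseudocount, bta-miR-7 in S vs. U turned to 0.004, both in the fit and within heifers, and with library sizes without TMM, bta-miR-122 in SH vs. SL turned to -0.126. Of 520 refitted log2 fold changes of the 5 miRNAs, 26 turned their sign, 24 of them when a library was left out. Those ranged in SH vs. UH from -0.617 to 0.141 for bta-miR-192, -1.027 to 0.393 for bta-miR-194 and -0.324 to 1.304 for bta-miR-7, and in S vs. U from -0.633 to 0.338 for bta-miR-7. In UH vs. UL they ran from -0.45 to 0.951 for bta-miR-122, -0.012 to 0.607 for bta-miR-192 and -0.826 to 0.083 for bta-miR-7, and in SH vs. SL from -0.829 to 0.54 for bta-miR-122. In the interaction they ran from -1.243 to 0.47 for bta-miR-122, -0.213 to 1.206 for bta-miR-194 and -0.956 to 0.145 for bta-miR-375. Within heifers, leaving out 1 heifer gave -1.15 to -0.748 for bta-miR-375, where the exact permutation p of 0.0625 is the smallest that 5 pairs allow, and -0.893 to 0.279 for bta-miR-7. Calls over all miRNAs, 12, 5, 11, 6, 11 and 12 in SH vs. UH, SL vs. UL, S vs. U, UH vs. UL, SH vs. SL and the interaction, ranged under the other settings over 6 to 19, 0 to 10, 4 to 13, 1 to 10, 4 to 21 and 4 to 13. When a library was left out they ranged over 6 to 24, 7 to 15, 5 to 16, 5 to 10, 8 to 34 and 7 to 21. The counts moved by over 1.5 times in SH vs. UH without SH2 (24, with 12 at an adjusted P of at most 0.05), UH2 or SH1 (6 each), in SL vs. UL without SL2 (15), UL2 (11), UL3 (9), UL1 or SL1 (8 each), in S vs. U without UL1 (5), UH1 (6) or UL3 (7), in UH vs. UL without UL3 or UH2 (10 each), in SH vs. SL without SH2 (34), and in the interaction without SH2 (21) or UL1 (7). In SH vs. UH, 8 miRNAs also had such an adjusted P without UH1. The causes were not tested. With at most 34 reads per library for bta-miR-194 and 17 for bta-miR-7, counting error limits the precision of both.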
